A study of Homo sapiens with 6 samples.

Results

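The cytosolic ribosomal protein genes were the protein-coding rows named RPL or RPS with digits and at most a single letter A, X or L, together with RPLP0, RPLP1, RPLP2 and RPSA. The rule used names alone and found 81 of the 58676 genes in the table, 49 of the large and 32 of the small subunit. Of these, 79 averaged 0.5 FPKM or more across the samples and were tested. FPKM is the number of sequenced fragments per kilobase of gene length, scaled to the number of counted reads. The remaining pair, RPL3L and RPL10L, stayed below it and received no test. RNA sequencing compared 3 samples of DCIS.COM cells carrying the PLKO.1 non-silencing vector (NS control) with 3 samples carrying a PLKO.1 vector with a BCL9 shRNA (BCL9 KD). DCIS.COM is a human breast cell line that models basal ductal carcinoma in situ, an early lesion confined to the milk ducts. All 6 samples came from this line, all were transduced with lentivirus, and the study's methods describe a separate T75 flask for each replicate. On that description the p-values measure the spread between flasks of a single line with a single BCL9 hairpin. The same methods elsewhere name fewer biological replicates per condition than the 3 in each group here. The comparison asks which transcripts differ once BCL9, a coactivator of β-catenin, is reduced.

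The knockdown and the libraries were checked first. BCL9 was 6.25, 6.24 and 5.34 FPKM in NS control and 2.86, 2.78 and 2.59 FPKM in BCL9 KD, a log2 fold change of -0.99 (SE 0.0933, limma adjusted p = 0.00773). It was called in 12 of 16 alternatives, and without KD 2, KD 3 or NS 2 its adjusted p was 0.0600, 0.0700 and 0.0636 in limma. The samples held 15222452 to 26949026 reads on genes. KD 2 and KD 3 were closer to each other than any other pair of samples, with a mean chi-square per gene of 2.07 against at least 10.4 for the other pairs, but they still differed by more than counting noise and were kept as 2 samples. All 8 basal epithelial markers examined were expressed and none was called in limma, with 1 higher and 1 lower at an unadjusted p under 0.05 (14.5% and 13% of all tested genes) and 0 called by voom. KRT5 was 379 to 436 FPKM over the 6 samples. Among fibroblast markers COL1A1 was 0.484 to 0.665 FPKM over the 6 samples (log2 fold change 0.10, limma adjusted p = 0.693), and COL3A1 was listed at 0 in all 6. The other 3 were too low to be tested. PDGFRB was higher in each BCL9 KD sample (0.0494 to 0.0554 FPKM in NS control and 0.0716 to 0.103 FPKM in BCL9 KD), COL1A2 was lower in each (0.00789 to 0.0118 and 0 to 0.00572 FPKM), and DCN overlapped at or below 0.0176 FPKM. The immune genes PTPRC, CD3E, CD68 and LYZ stayed at or below 0.0641 FPKM in each sample, whereas the endothelial gene PECAM1 was present at 1.72 to 2.29 FPKM in NS control and 3.11 to 3.91 FPKM in BCL9 KD (log2 fold change 0.61, limma adjusted p = 0.0477, called in 5 of 16 alternatives). VWF and CDH5, the other endothelial markers, did not exceed 0.0534 FPKM.

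A ribosome has a small subunit that decodes the mRNA and a large subunit that joins the amino acids, and each holds ribosomal RNA and its own set of proteins. The genes for these proteins are housekeeping genes that are among the most strongly expressed of any cell, and their products are needed in equal numbers. Many of their mRNAs begin with a terminal oligopyrimidine (TOP) motif, a C at the first base followed by a run of C and T. The translation of such mRNAs depends on the growth-controlling kinase complex mTORC1, and MYC raises the transcription of many ribosomal genes.

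Sequences around the transcription start showed this shared feature. RefSeq promoters (GRCh38.p14) were found for 64 of the 81 genes. In a window of 30 bases, 15 on each side of the boundary at the annotated start, 42 of the 64 (65.6%) began transcription with a C followed by at least 4 pyrimidines, against 4.04% of all 27305 promoters. The letters CTTTC on either strand occurred in the windows of 28 of the 64 (43.8%), against 7.26% of all promoters. The windows of the 8 genes called higher in BCL9 KD are printed first, followed by RPS27L, RPS10, RPS23 and RPL26, which were not called. These uncalled genes had low mean levels of 8.48, 1.39, 2.43 and 3.32 FPKM, which are uncertain, and do not stand for the uncalled genes as a whole. Each window runs 5′ to 3′ on the strand of the gene, and capitals mark an unbroken run of C and T across the start.
RPS27 (chr1:153990747-153990776, plus strand): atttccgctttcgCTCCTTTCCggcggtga
RPS21 (chr20:62387088-62387117, plus strand): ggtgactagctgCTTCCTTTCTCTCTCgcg
RPLP1 (chr15:69452803-69452832, plus strand): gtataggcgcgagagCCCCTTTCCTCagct
RPL31 (chr2:101002274-101002303, plus strand): acaatccttcgcgCTCTTCCTTTCCaactt
RPS19 (chr19:41860240-41860269, plus strand): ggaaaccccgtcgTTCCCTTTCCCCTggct
RPS27A (chr2:55231888-55231917, plus strand): taaggagtgacacacaagacccagactctt
RPL10 (chrX:154398050-154398079, plus strand): tttttccactctcagaaatatacgtctgtc
RPL22 (chr1:6199581-6199610, minus strand): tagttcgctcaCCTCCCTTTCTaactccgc
RPS27L (chr15:63157463-63157492, minus strand): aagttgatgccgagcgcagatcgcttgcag
RPS10 (chr6:34426055-34426084, minus strand): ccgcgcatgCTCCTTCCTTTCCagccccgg
RPS23 (chr5:82278340-82278369, minus strand): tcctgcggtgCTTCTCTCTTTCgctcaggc
RPL26 (chr17:8383179-8383208, minus strand): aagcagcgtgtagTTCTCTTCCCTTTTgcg
Runs were present in windows of called and uncalled genes alike, and the annotated starts of RPS27A and RPL10, both called, carried none. Among the tested genes with a promoter, the median log2 fold change was 0.42 over the 42 with the C and pyrimidine start and 0.31 over the 21 without it, and the ranges overlapped (-0.08 to 1.05 and 0.10 to 0.78).

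Ribosomal protein transcripts made up a larger part of the RNA in the BCL9 KD samples, though 1 BCL9 KD sample lay beside the controls. The 81 genes held 6.84%, 6.02% and 6.38% of the summed FPKM in NS control (6.41% ± 0.409, SD, n = 3) and 6.97%, 8.45% and 8.49% in BCL9 KD (7.97% ± 0.866, SD, n = 3). The groups did not overlap, but KD 1 was only just above NS 1. The difference of 1.55 percentage points, a ratio of 1.24, had a two-sided exact permutation p of 0.1, the smallest that 3 against 3 samples allow. With the coding length correction, which removes the trend of fold change with coding length over all genes and was chosen after seeing the data, the difference was 0.877 points. The small subunit genes went from 2.79% ± 0.184 to 3.61% ± 0.436 and the large subunit genes from 3.62% ± 0.226 to 4.36% ± 0.430 (SD, n = 3 each). A share of whole reads instead of FPKM gave 4.88% ± 0.457 and 6.26% ± 0.717 (SD, n = 3 each). These are shares of a fixed total, and in bulk samples the number of ribosomal transcripts per cell cannot be told apart from a change in the rest of the RNA.

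**Figure D1:**
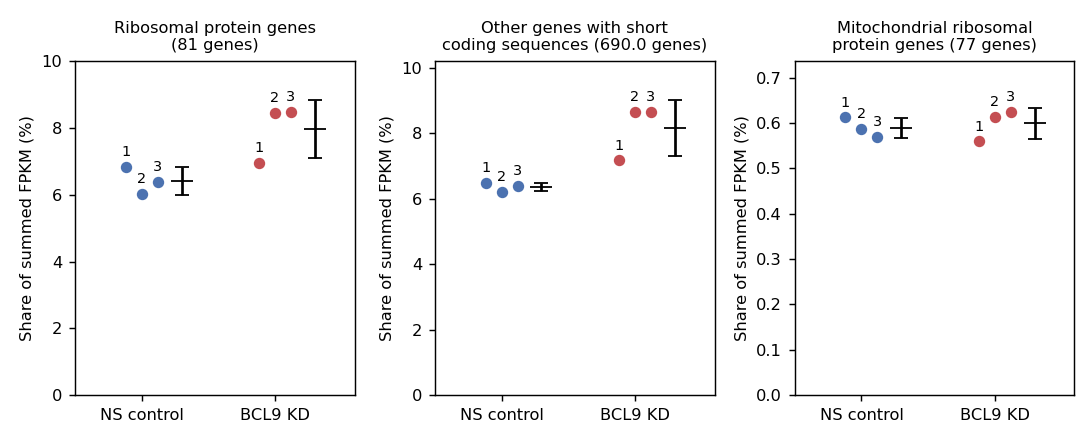
Share of summed FPKM in percent, per sample, for the 81 ribosomal protein genes, for 690 other tested protein-coding genes with a coding sequence under 450 bases, and for 77 mitochondrial ribosomal protein genes. Points are samples with their replicate number, bars are the mean ± SD of 3 samples, each axis starts at 0, and the BCL9 KD samples 2 and 3 sit at 8.45% and 8.49% in the first panel, above the 6.97% of KD 1.

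Other parts of the RNA were measured in the same way. The 690 other tested protein-coding genes with a coding sequence under 450 bases held 6.48%, 6.22% and 6.39% in NS control and 7.17%, 8.66% and 8.66% in BCL9 KD, with KD 1 again the lowest of the BCL9 KD samples (exact permutation p = 0.1). Their part in the ribosomal protein result was not tested. The mitochondrial ribosomal protein genes, which encode the separate ribosome of mitochondria, held 0.589% ± 0.0215 and 0.599% ± 0.0350 (SD, n = 3 each, exact permutation p = 0.7). The mitochondrially encoded genes took 17.3% to 21.2% of the FPKM in NS control and 18.9% to 22.0% in BCL9 KD, with overlap (exact permutation p = 0.8).

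Gene by gene, 8 ribosomal protein genes rose in BCL9 KD, RPS27, RPS21, RPLP1, RPL31, RPS19, RPS27A, RPL10 and RPL22, and none fell. In limma, with p-values adjusted over all 13745 tested genes, these 8 of 79 were 10.1%, against 2.96% of all tested genes called higher. Called lower were 0 of the 79 by limma, 0 at an unadjusted p under 0.05 and 0 by voom on the recovered reads, against 2.91% of all tested genes called lower, 13% lower at an unadjusted p under 0.05 and 5% called lower by voom. Called higher by voom were 25 of the 79, against 5.19% of all tested genes. All 3 BCL9 KD values lay above all 3 NS control values for 40 of the 79, where 17.8% of all tested genes did so. They lay below for 0, against 16.4% of all tested genes. The log2 fold change was above 0 for 73 and below 0 for 6, with a median of 0.35 against 0.04 over all tested genes and a range of -0.11 to 1.05. These medians were 0.20 and -0.01 with quantile normalization, and 0.23 and 0.04 with the coding length correction. Of the small subunit 4 of 32 genes were called and of the large subunit 4 of 47, with medians of 0.34 and 0.35, and the difference between the subunits was not tested.

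The 8 calls rested on single libraries. Without KD 2, KD 3 or NS 2 none of the 79 was called, and 13, 5 and 12 of all genes were. With each of these left out in turn, 30 of the 79 were still higher at an unadjusted p under 0.05, as were 9.12%, 8.56% and 10.6% of all tested genes. Without KD 1, 31 members were called, without NS 1 only RPL15 and RPS19 were, and without NS 3 the same 8 were, where 3.30%, 2.88% and 6.61% of all tested genes were called higher. In the complete data 55 members were higher at an unadjusted p under 0.05, against 14.5% of all tested genes, and the adjusted p of the 71 uncalled genes ran from 0.0509 to 0.976.

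**Figure D2:**
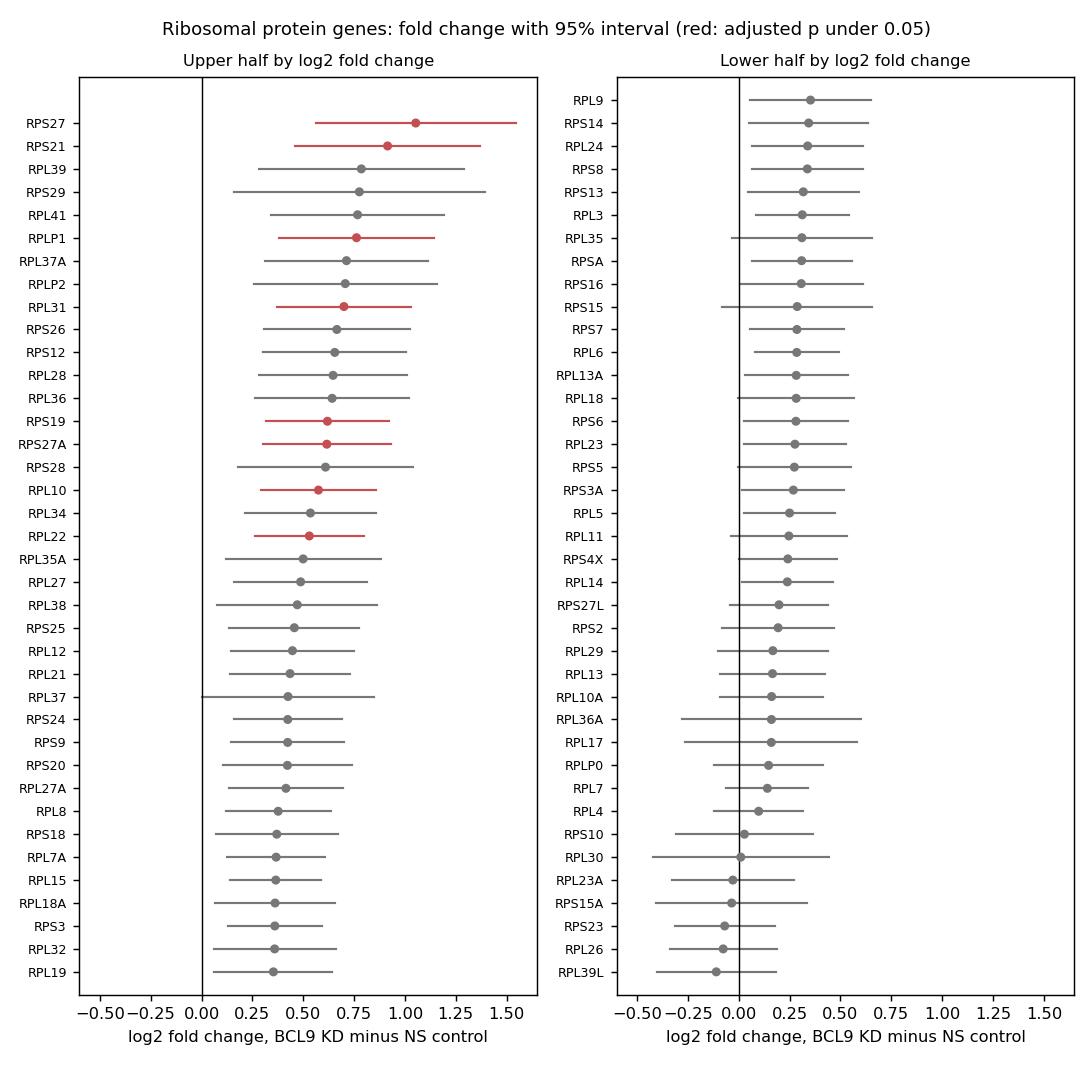
Log2 fold change (BCL9 KD minus NS control, on log2(FPKM + 0.5)) of 77 of the 79 tested ribosomal protein genes, with limma's 95% confidence interval as a line. Genes are ordered by fold change over both panels, the 8 with an adjusted p under 0.05 are in red, and RPS27 has the highest at 1.05.

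RPS27 and RPS21, both of the small subunit, had the largest log2 fold changes. RPS27, a small zinc-finger protein of the 40S subunit (ENSG00000177954, chromosome 1, 153990759 to 153992150 in hg38), was 442, 367 and 482 FPKM in NS control and 642, 1049 and 1038 FPKM in BCL9 KD. All BCL9 KD values were above the controls, and the log2 fold change was 1.05 (SE 0.208, adjusted p = 0.0396), the largest among the 79 tested genes. Its share of all FPKM went from 0.165% ± 0.0174 to 0.328% ± 0.0784 (SD, n = 3 each). RPS21 (ENSG00000171858, chromosome 20, 62387116 to 62388520), a short protein of the same subunit, was 181, 153 and 187 FPKM in NS control and 239.9, 379.9 and 382 FPKM in BCL9 KD. Its log2 fold change was 0.91 (SE 0.191, adjusted p = 0.0449) and, as for RPS27, KD 1 lay between the controls and the other BCL9 KD samples. With the coding length correction RPS21 had 0.60 (limma adjusted p = 0.0364).

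RPS19 (ENSG00000105372, chromosome 19, 41859918 to 41872926) is needed to mature the small subunit, and its loss causes Diamond-Blackfan anaemia. It was 197, 159 and 182 FPKM in NS control and 234, 301 and 294 FPKM in BCL9 KD, with a log2 fold change of 0.62 (SE 0.127, adjusted p = 0.0427). RPS27A (ENSG00000143947, chromosome 2, 55231903 to 55235853) encodes ubiquitin fused to a small subunit protein. It was 199, 178 and 219.7 FPKM in NS control and 254, 339 and 326 FPKM in BCL9 KD, and its log2 fold change was also 0.62 (SE 0.133, adjusted p = 0.0466). The groups did not overlap for either gene.

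In the large subunit, RPLP1 (ENSG00000137818, chromosome 15, 69452784 to 69456194) forms part of the stalk that recruits elongation factors. It was 243, 219.6 and 267 FPKM in NS control and 321, 467 and 464 FPKM in BCL9 KD, with a log2 fold change of 0.76 (SE 0.160, adjusted p = 0.0456). RPL31 (ENSG00000071082, chromosome 2, 101001715 to 101024032), which lies near the exit of the peptide tunnel, was 64.8, 58.3 and 71.1 FPKM in NS control and 85.7, 118 and 115 FPKM in BCL9 KD. Its log2 fold change was 0.70 (SE 0.140, adjusted p = 0.0405). RPLP1 and RPL31 both had KD 1 above the highest control and below the other BCL9 KD samples.

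RPL10 (ENSG00000147403, chromosome X, 154389955 to 154409168) sits near the catalytic centre and is added late in the assembly of the large subunit. It was 101, 85.5 and 96.4 FPKM in NS control and 119, 153 and 152 FPKM in BCL9 KD, a log2 fold change of 0.57 (SE 0.119, adjusted p = 0.0434). RPL22 (ENSG00000116251, chromosome 1, 6181269 to 6209389), an RNA-binding large subunit protein that is dispensable for protein synthesis, was the weakest of the 8 in level, at 10.6, 12.5 and 13.9 FPKM in NS control and 16.5, 19.2 and 18.3 FPKM in BCL9 KD. Its log2 fold change was 0.53 (SE 0.113, adjusted p = 0.0466), and its 3 BCL9 KD values were closer together than those of the other 7 genes. With the coding length correction RPL22 had 0.34 (limma adjusted p = 0.117).

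The ribosomal protein genes with the highest mean FPKM included RPS2, RPL13A, RPS12 and RPS27, and of these 4 only RPS27 passed the test. RPS2, a small subunit protein near the mRNA entry, was 1069, 824 and 890.3 FPKM in NS control and 978, 1094 and 1097 FPKM in BCL9 KD. KD 1 was below NS 1, and the log2 fold change of 0.19 had an adjusted p of 0.316 in limma. It was 0.30 without NS 1, 0.11 without NS 2 and 0.12 with the length correction. RPS12, another small subunit protein, was 593, 497 and 580.1 FPKM in NS control and 705, 970.1 and 977 FPKM in BCL9 KD, with no overlap and a log2 fold change of 0.65 that just missed the threshold (SE 0.148, limma adjusted p = 0.0509).

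None of the members described next, which have textbook roles outside the ribosome, passed the test. Called higher were 10.1% of the 79 tested members and 2.96% of all tested genes, so the lack of a call does not set these few apart. RPL5, RPL11 and RPL23 can bind MDM2, a ubiquitin ligase. Their log2 fold changes were 0.25 (95% interval 0.03 to 0.47), 0.25 (-0.04 to 0.53) and 0.28 (0.03 to 0.53), with adjusted p of 0.146, 0.237 and 0.148 in limma. RPS6, the phosphorylation target of S6 kinase, was 606, 508 and 572 FPKM in NS control and 604, 733 and 714 FPKM in BCL9 KD (log2 fold change 0.28, limma adjusted p = 0.152), and KD 1 was below NS 1. Under quantile normalization its log2 fold change was -0.06 and that of RPLP0, a stalk protein often used as a reference transcript, was -0.05, against 0.15 in the main scale (limma adjusted p = 0.424). RPLP0 had up to 0.26 over the alternatives. RPS3, which also acts in DNA repair, had a log2 fold change of 0.36 without overlap of the groups (limma adjusted p = 0.0728). RPSA, also known as the laminin receptor, had 0.31 (limma adjusted p = 0.115) and RPL13A, which can silence inflammatory mRNAs, 0.28 (limma adjusted p = 0.145).

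The members rose and fell across samples largely together. The first principal component of their log2 values held 91.5% of the variance, and 62 of 79 correlated at r of 0.9 or more with the summed FPKM of the other members over the 6 samples, which share their library totals. Neither figure has a counterpart over all tested genes here, and genes outside the members, described below, reached r of 0.996 or more. The median deviation of a gene from its own mean was -0.07, -0.33 and -0.14 on the log2 scale in NS 1, NS 2 and NS 3 and -0.02, 0.28 and 0.26 in KD 1, KD 2 and KD 3. NS 2 was therefore the lowest sample, and KD 1 was nearest to NS 1. Above all 3 controls were 40 of the 79 genes in KD 1, 67 in KD 2 and 68 in KD 3, against 31.7%, 31.3% and 34% of all tested genes. The median coefficient of variation was 10.6% in NS control and 12.7% in BCL9 KD, whereas over all tested genes it was 12.5% and 8.08%.

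**Figure D3:**
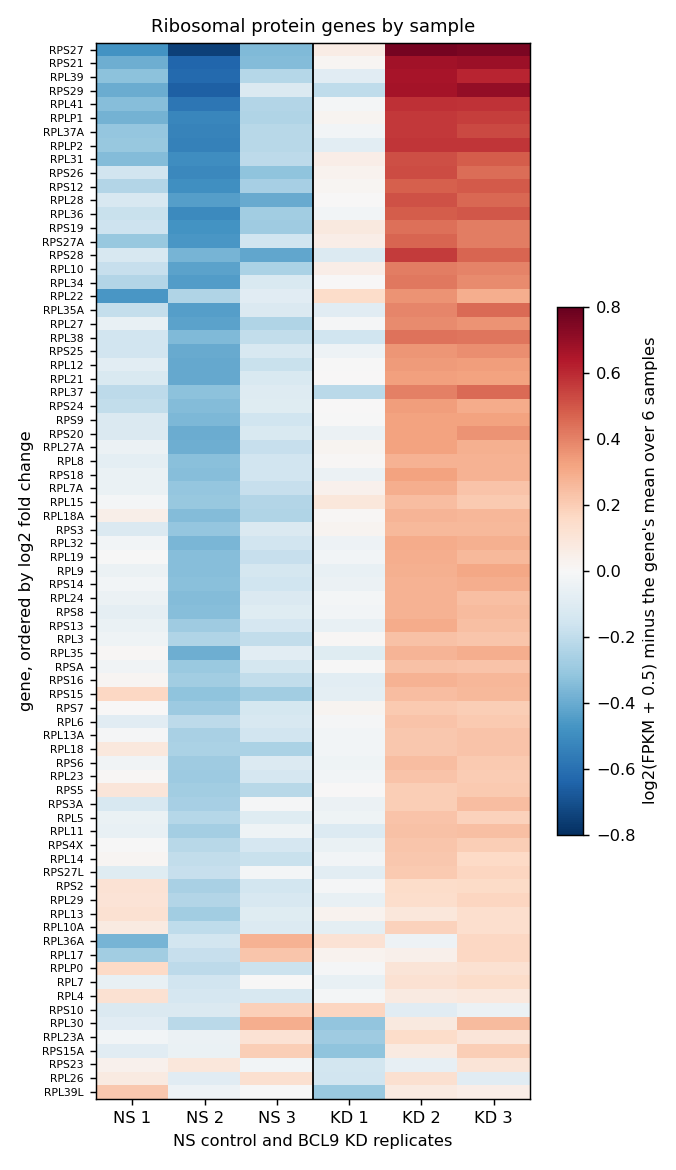
Deviation of 77 of the 79 tested ribosomal protein genes (rows, ordered by log2 fold change) from their own mean of log2(FPKM + 0.5) over the 6 samples (columns). Red is above and blue below the gene's mean, and KD 2 and KD 3 are red over most rows while KD 1 is near 0, with a median deviation of -0.02.

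The genes whose log2 values followed the summed ribosomal protein FPKM most closely over the 6 samples, among tested protein-coding genes outside the rule, were POLE4 (Pearson r = 0.9996), ARF4, TMSB10, UQCRH and ATP5G1. POLE4 is a small subunit of DNA polymerase epsilon, UQCRH and ATP5G1 belong to the respiratory chain and the mitochondrial ATP synthase, ARF4 is a small GTPase of Golgi traffic, and TMSB10 binds actin. TMSB10 was 1094, 852 and 959.7 FPKM in NS control and 1169, 1636 and 1613 FPKM in BCL9 KD. None of the 5 passed the test, with limma adjusted p from 0.0718 to 0.142.

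The log2 fold change was larger for members with shorter coding sequences. Coding length here is that of the main RefSeq and Ensembl transcript. Spearman's rho between coding length and log2 fold change was -0.47 over the 79 members and -0.69 over the 68 of 20 FPKM or more, as a description across genes that share the same 6 libraries. The median log2 fold change was 0.77 over the 7 members under 250 bases, 0.64 over the 11 from 250 to 349, 0.42 over the 20 from 350 to 449, 0.34 over the 19 from 450 to 599, 0.28 over the 19 from 600 to 899 and 0.15 over the 3 from 900 to 1499. RPL41, at 75 bases the shortest, was 320.5, 272 and 345 FPKM in NS control and 402, 608 and 608 FPKM in BCL9 KD, a log2 fold change of 0.77. RPL4, at 1281 bases the longest tested, was 566, 474 and 476 FPKM in NS control and 516, 548 and 553 FPKM in BCL9 KD, and its log2 fold change was 0.10. This pair was chosen after its values were seen, for its lengths.

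Coding length and fold change were also negatively related among other genes. Over other protein-coding genes rho was -0.25 (10926 genes), and over those of at least 50 FPKM it was -0.57 (641 genes). In the same 6 length classes the medians of the other genes were 0.43, 0.33, 0.22, 0.15, 0.10 and 0.04. For those of at least 50 FPKM they were 0.59, 0.46, 0.34, 0.13, 0.10 and -0.01, so that the medians of the members were above both in each class. Of the other genes of at least 50 FPKM, 61.5%, 34.3%, 18.9%, 12.5%, 6.09% and 1.96% were called higher in the 6 classes, beside 1 of 7, 2 of 11, 3 of 20, 1 of 19, 1 of 19 and 0 of 3 members. The difference in these shares was not tested. When the trend with coding length over all genes was removed, a correction chosen after seeing the data, the members' median was 0.23, with 9 called higher and RPL39L called lower (-0.57, limma adjusted p = 0.0198), beside 387 higher and 341 lower of all 13745 genes. The removed trend was fitted over genes of all levels, and it was weaker there than over those of at least 50 FPKM. How much of it remained in the members was not tested. The part of library preparation or RNA quality in this trend was not tested. GC content had a rho of 0.15 with the fold change over the 79 members, -0.37 over the 10926 other protein-coding genes and -0.22 over the 641 of at least 50 FPKM. With the trend over GC content removed 31 members were called higher, against 6.76% of all tested genes, and the members' median was 0.40. Among members named here and not called, the coding length correction lowered RPL11 to 0.15 and RPL23 to 0.11, and the GC correction lowered RPL5 to 0.16. Quantile normalization gave RPS12 0.42, RPL3 0.17, RPS3 0.15, RPL11 0.14, RPL13A 0.10 and RPL5 0.09.

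**Figure D4:**
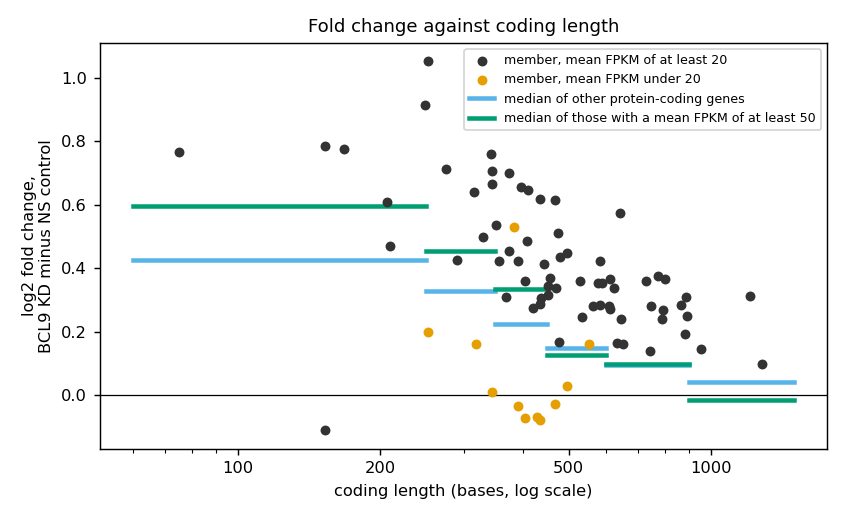
Log2 fold change (BCL9 KD minus NS control) against coding length in bases (log axis). Points are tested ribosomal protein genes, in orange those with a mean FPKM under 20, and the horizontal lines are medians of other protein-coding genes by length class, which run from 0.43 in the shortest to 0.04 in the longest class.

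Paralogs were compared with their partners by the log2 ratio of their levels in each sample, for which 3 samples against 3 cannot give an exact p below 0.1. RPS27L, a paralog of RPS27, was 7.84, 7.36 and 8.35 FPKM in NS control and 7.92, 9.84 and 9.57 FPKM in BCL9 KD (log2 fold change 0.20, limma adjusted p = 0.255). The log2 ratio of RPS27 to RPS27L was higher in BCL9 KD by 0.85, and all 3 BCL9 KD ratios were above the controls (exact permutation p = 0.1, the smallest possible). RPL39 was 87.7, 71.2 and 93.9 FPKM in NS control and 103, 174 and 168 FPKM in BCL9 KD (log2 fold change 0.79, limma adjusted p = 0.0730). The coding length correction lowered this to 0.33 (limma adjusted p = 0.121). Its paralog RPL39L, expressed mainly in testis and in some cancers, was 37.3, 31.1 and 32.0 FPKM in NS control and 26.1, 33.9 and 33.4 FPKM in BCL9 KD (log2 fold change -0.11, limma adjusted p = 0.581). The log2 ratio of RPL39 to RPL39L differed by 0.90 without overlap (exact permutation p = 0.1).

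RPL7L1, which acts in the assembly of the large subunit rather than in the finished ribosome, fell in BCL9 KD, from 38.2, 38.4 and 36.0 FPKM to 28.3, 28.7 and 29.1 FPKM (log2 fold change -0.38, SE 0.0619, limma adjusted p = 0.0275). RPL7 itself was 361, 339 and 376 FPKM and then 362, 409 and 417 FPKM, with overlap of the groups (log2 fold change 0.14, limma adjusted p = 0.320, and 0.04 to 0.20 over the alternatives). RPL22L1, the paralog that RPL22 represses, was 25.1, 24.1 and 32.1 FPKM in NS control and 36.0, 51.4 and 49.97 FPKM in BCL9 KD (log2 fold change 0.74, limma adjusted p = 0.0501), so that the log2 ratio of RPL22 to RPL22L1 differed by -0.21 with overlap (exact permutation p = 0.3). RPL26L1 and RPL36AL had log2 fold changes of 0.39 and 0.53 (limma adjusted p = 0.144 and 0.0715), which were 0.24 and 0.29 with the coding length correction. Without NS 2 RPL26L1 had 0.24. The log2 ratio of RPL26 to RPL26L1 differed by -0.47 and that of RPL7 to RPL7L1 by 0.52, both without overlap (exact permutation p = 0.1 each), and that of RPL36A to RPL36AL by -0.37 with overlap (exact permutation p = 0.2). RPL3 had 0.31 (limma adjusted p = 0.0969), whereas its muscle paralog RPL3L was at or below 0.0694 FPKM in each sample and the retrogene RPL10L was listed at 0 in all 6.

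A set of 13 members had a mean FPKM under 20, far below the median of 226 FPKM of the other 68. Besides the untested pair they included RPL22, RPL23A, RPL30, RPS27L, RPS15A, RPL26, RPS23, RPS10, RPL36A and RPL17. The lowest tested were RPL17 at 0.553, 0.621 and 0.986 FPKM in NS control and 0.803, 0.813 and 0.932 FPKM in BCL9 KD, RPL36A at 0.877 to 1.66 FPKM and RPS10 at 1.23 to 1.64 FPKM over the 6 samples. The table has a row named as a read-through gene with RPL17, RPL36A and RPS10 each, and for 0 of the 68 members above 20 FPKM. It also holds 1001 rows of ribosomal protein pseudogenes, near-identical copies, for 75 of the 81 members, with 91 for RPL23A. How reads that match several genes were counted was not given in the sources used here, so the levels of these members are uncertain. Over the 11 tested genes of low level the median log2 fold change was 0.01, and 1 of the 11, RPL22, was called higher (9.09%), beside 7 of the other 68 (10.3%) and 2.96% of all tested genes. The sign of RPS10, 0.03, turned under quantile normalization, both length corrections and the omission of KD 1, NS 1 or NS 2, and RPL36A and RPS27L turned negative under the coding length correction. Over the 16 alternatives the log2 fold change ranged from 0.06 to 0.32 for RPL17, from -0.08 to 0.34 for RPL36A and from -0.23 to -0.02 for RPL26.

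Of the ribosomal subunits that the name rule leaves out, FAU, a fusion of a ubiquitin-like protein with a small subunit protein, had a log2 fold change of 0.42 with overlap (limma adjusted p = 0.172) and 0.25 with the coding length correction. RACK1, the scaffold on the head of the small subunit, listed as GNB2L1, was 335, 275 and 287 FPKM in NS control and 280.1, 292 and 285 FPKM in BCL9 KD. Its log2 fold change was -0.06 (95% interval -0.27 to 0.15, limma adjusted p = 0.687), and it was 0.02 with the GC correction and without NS 1.

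Other lists of the translation machinery were compared in the same way. Among elongation factors and other TOP mRNAs, a class that shares the start motif, 1 of 18 was called higher and 0 lower in limma (5.56% higher, against 2.96% of all tested genes), with a median log2 fold change of 0.35, equal to that of the members (0.35). The called gene was SNHG8, a small nucleolar RNA host gene, at 16.7, 15.2 and 18.7 FPKM in NS control and 27.2, 40.7 and 42.0 FPKM in BCL9 KD (log2 fold change 1.08, adjusted p = 0.0273). At an unadjusted p under 0.05, 10 were higher and 1 lower, against 14.5% and 13% of all tested genes, and voom on the recovered reads called 7 higher and 1 lower, against 5.19% and 5% of all tested genes by voom. The elongation factors EEF1A1 and EEF2, named after their values were seen, which bring transfer RNA and move the ribosome, had log2 fold changes of 0.06 and -0.26 (limma adjusted p = 0.706 and 0.240).

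Translation initiation factors had a median log2 fold change of 0.00, and of 36 tested 0 were called higher and 3 lower, against 2.96% and 2.91% of all tested genes. The 3 were EIF4G1, the scaffold that joins the cap to the small subunit, its relative EIF4G2, and EIF4EBP2, a repressor of cap binding. EIF4G1 fell from 270.5, 249 and 216 FPKM to 172, 158 and 158 FPKM (log2 fold change -0.59, SE 0.0978, limma adjusted p = 0.0290). EIF4EBP2 fell from 25.8, 24.9 and 22.1 FPKM to 15.7, 14.2 and 13.7 FPKM (log2 fold change -0.72, limma adjusted p = 0.0138), and EIF4G2 fell by 0.41 on the log2 scale (limma adjusted p = 0.0328). EIF4G1, EIF4G2 and EIF4EBP2 have coding sequences of 4797, 2721 and 360 bases and were called in 9, 10 and 12 of 16 alternatives. At an unadjusted p under 0.05, 7 of the 36 were higher and 6 lower, against 14.5% and 13% of all tested genes, and voom called 1 higher and 3 lower, against 5.19% and 5%.

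Ribosome biogenesis factors, which process ribosomal RNA and assemble the subunits, included 9 called lower and 1 higher of 75 (12% and 1.33%, against 2.91% and 2.96% of all tested genes), with a median log2 fold change of -0.06. RRP12, an export factor, fell from between 8.25 and 10.5 FPKM to between 6.27 and 6.46 FPKM (log2 fold change -0.55, limma adjusted p = 0.0340). GNL3L, a nucleolar GTPase, and TCOF1, the Treacher Collins protein that promotes transcription of ribosomal DNA, each fell by about the same amount (log2 fold change -0.48 each, limma adjusted p = 0.0410 and 0.0416). RRP12, GNL3L and TCOF1 have 3891, 1746 and 4467 coding bases and were called in 7, 9 and 5 of 16 alternatives. The median coding length was 1644 bases over the tested factors, 453 over the ribosomal protein genes and 1404 over all tested genes. The part of coding length in these falls was not tested. NOP10, a small protein of the pseudouridine-forming particles, rose from 66.0, 64.9 and 59.8 FPKM to 82.1, 106 and 102 FPKM (log2 fold change 0.59, limma adjusted p = 0.0340). NOP10 has a coding sequence of 192 bases, and with the coding length correction its log2 fold change was 0.21 (limma adjusted p = 0.175). Of 20 genes of RNA polymerase I and its factors, the largest subunits POLR1A and POLR1B fell (log2 fold change -0.59 and -0.39, limma adjusted p = 0.0308 and 0.0374), the shared small subunit POLR2L rose (0.82, limma adjusted p = 0.0477), and the median was 0.14. That was 10% lower and 5% higher, against 2.91% and 2.96% of all tested genes. POLR2L, also short in coding sequence, had 0.44 with the coding length correction (limma adjusted p = 0.0512), and NOP10 and POLR2L were called in 8 and 5 of 16 alternatives. POLR1A and POLR1B, which fell, have long coding sequences of 5160 and 3405 bases and were called in 8 of 16 alternatives each.

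In the mTORC1 pathway 4 of 26 genes were called higher and 1 lower (15.4% and 3.85%, against 2.96% and 2.91% of all tested genes), with a median of 0.04. LAMTOR5, LAMTOR2 and, named after its value was seen, LAMTOR4 of the Ragulator complex, which anchors mTORC1 to lysosomes, had log2 fold changes of 0.75, 0.63 and 0.54, and the mTOR inhibitor DEPTOR had 0.61 (limma adjusted p from 0.0225 to 0.0486). LAMTOR5 had 0.46 with the coding length correction (limma adjusted p = 0.0298). RPTOR, the defining subunit of mTORC1, fell by 0.51 on the log2 scale (limma adjusted p = 0.0466). It has a coding sequence of 4005 bases and was called in 6 of 16 alternatives. Of the 10 genes of the MYC network 0 were called in limma, 1 was higher and 0 lower at an unadjusted p under 0.05 (14.5% and 13% of all tested genes), and voom called 1 higher (5.19% of all tested genes). MYC was 54.8, 52.7 and 51.8 FPKM in NS control and 51.5, 57.6 and 55.5 FPKM in BCL9 KD (log2 fold change 0.05, limma adjusted p = 0.694). None of the calls in these translation, mTORC1 and paralog lists was made without KD 2, KD 3 or NS 2.

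**Figure D5:**
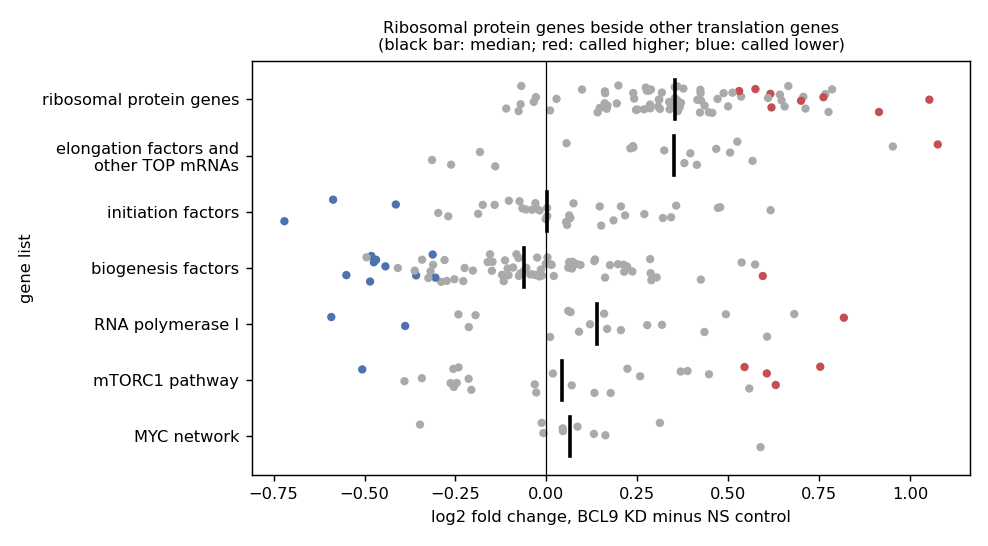
Log2 fold change (BCL9 KD minus NS control) of the tested genes in 7 lists, 1 point per gene with random vertical offset. Red points were called higher, blue points lower, and the black bar is the list's median, which was 0.35 for the ribosomal protein genes and for the elongation factors and other TOP mRNAs and -0.06 for biogenesis factors.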

How the data were processed

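Total RNA from 3 NS control and 3 BCL9 KD samples was sequenced. According to the submitters' processing notes, the authors used CASAVA, STAR and HTSeq 0.6.1 with build hg38, and deposited FPKM per gene. The deposited table also lists a length in bases for each gene, and its 6 sample columns were all mapped by name. Multiplied by length and divided by the value of 1 read, the FPKM came out whole for 100% of values (tolerance 0.1), which gave reads and depth. Values were taken as log2(FPKM + 0.5) for genes averaging 0.5 FPKM or more and tested with limma 3.58.1 (R 4.3.3, trended variance), with Benjamini-Hochberg adjusted p under 0.05 as the call. Fold changes on this scale understate those of low genes. Shares were compared by exact permutation.

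The members and gene lists were chosen with earlier results of these data known. Named were the called members without overlap (up to 8 in each direction), the 5 highest and 5 lowest by mean FPKM, paralog pairs, members with a textbook role outside the ribosome, FAU and RACK1, BCL9, up to 3 called genes in each direction per list, and the 5 genes most like the summed members. Other genes, such as MYC and KRT5, were named after their values were seen. A few genes that this rule takes are not reported here. Coding lengths and GC content came from GENCODE annotation of another build and no coordinates were taken from it. A coding length was available for 80.2% of tested genes and 81 members. Intervals are 95%.

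The alternatives were log2(FPKM + 1), quantile normalization, median-of-ratios scaling, no filter, corrections for GC content, gene length and coding length, voom on recovered reads, a replicate block, and leaving out each sample. The same replicate numbers did not pair the samples.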

Additional observations from a re-analysis of the deposited data

How the results depend on the processing

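The share of summed FPKM was higher in BCL9 KD under each alternative run, by 0.877 points (coding length correction) to 2.05 points (without KD 1). The fold changes of the 8 called members kept their sign under each alternative, and each lost its call under 7 to 10 of 16. Against 807 genes and 8 higher members called in the main analysis, counts were 142 and 0 with no filter on low FPKM (more genes tested), 1630 and 31 with the GC correction (929 higher, 701 lower), 1400 and 25 with voom, 646 and 3 with median-of-ratios scaling, and 1083 and 17 with quantile normalization. Leaving out a sample gave 5 to 1712 genes and 0 to 31 higher members. The cause was not tested. The coding length correction called 1 member lower. Quantile normalization moved the median of the members to 0.20, and the median of all tested genes from 0.04 to -0.01. In the analyses of 79 members 68 to 75 had a log2 fold change above 0 (73 in the main analysis), and with no filter 74 of 80 did. Among the genes named by rule, reversed signs were those of RPS10 (-0.0408 quantile, -0.0819 length, -0.0868 coding length, and -0.0525 to 0.129 when samples were left out), RPL36A (-0.0843) and RPS27L (-0.113) with the coding length correction, RPL39L (-0.175 to 0.00912 when samples were left out), RPS6 (-0.0551) and RPLP0 (-0.0525) with quantile normalization, and GNB2L1 (0.0208 with GC correction, also with the block, and -0.118 to 0.0242 when samples were left out). Replicate numbers are shared by the groups but did not pair the samples (correlation of deviations -0.0795 for the same number, 0.0387 for different numbers). With a replicate block 0 genes and 0 members were called by limma (3235 and 36 higher members at an unadjusted p under 0.05), and with GC correction and block 156 and 0. The share had a blocked p of 0.25. Arms of 2 samples share the spread of the other arm. Counting error is large for the members near 1 FPKM.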

Other observations

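Ribosomal protein pseudogenes, which are processed copies with few or no introns, held 0.642% ± 0.0596 of the summed FPKM in NS control and 0.862% ± 0.0702 in BCL9 KD (SD, n = 3 each, exact permutation p = 0.1). Of 1001 such rows 61 passed the filter, and 3 were called higher and 0 lower by limma, with 15 higher and 2 lower at an unadjusted p under 0.05, against 2.96% called higher, 2.91% called lower, and 14.5% higher and 13% lower at an unadjusted p under 0.05 over all tested genes. The called rows were RPL6P27 (log2 fold change 0.77), RPL39P3 (0.72) and RPSAP58 (0.68), named because they were the only ones called. The row with the highest level was RPL41P1, at 1462, 1129 and 1141 FPKM in NS control and 1657, 1989 and 1891 FPKM in BCL9 KD (log2 fold change 0.58, limma adjusted p = 0.0511), above RPL41 itself at 272 to 608 FPKM. FPKM divides by the listed gene length, 1088 bases for RPL41, so this does not show that the pseudogene had more reads. RPSAP47 had all BCL9 KD values below the controls, at 12.7, 12.1 and 15.2 FPKM and then 6.75, 9.65 and 11.3 FPKM (log2 fold change -0.53, limma adjusted p = 0.124), while RPSA had a log2 fold change of 0.31. How reads shared by a pseudogene and its parent were assigned was not given in the sources used here.

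Of 74 tested mitochondrial ribosomal protein genes 1 was called higher and 0 lower by limma, with 22 higher and 1 lower at an unadjusted p under 0.05. Over all tested genes 2.96% were called higher and 2.91% lower, 14.5% were higher and 13% lower at an unadjusted p under 0.05, and the 1 of 74 was 1.35%. The list had a median log2 fold change of 0.13. The called gene was MRPS33, a small subunit protein, at 3.71, 3.76 and 3.90 FPKM in NS control and 5.03, 6.40 and 6.98 FPKM in BCL9 KD (log2 fold change 0.62, limma adjusted p = 0.0387). It was named because it was the only one called.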
